A study of Mus musculus with 8 samples.

Results

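Atf3, a stress-inducible transcription factor, was the member with the largest difference among 10 genes of the integrated stress response that were compared between mouse muscles electroporated with *Uba1* siRNAs and with control NT siRNAs. The genes are *Atf3*, *Atf4*, *Atf5*, *Ddit3*, *Trib3*, *Chac1*, *Asns*, *Ppp1r15a*, *Sesn2* and *Ddit4*. They were found by name among the 41709 entries of a table of TPM values, a unit that scales reads by transcript length and by the total of each muscle. *Atf3* was chosen by its TPM values, which were known to be lower with *Uba1* siRNAs in these same muscles, so they are given as a description and with no test. The other 9 genes were taken for their place in the pathway, and the question was whether they moved with *Atf3*. UBA1 is the main E1 enzyme, which activates ubiquitin before it is passed on to substrates.

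The 8 samples were whole TA muscles (tibialis anterior, at the front of the lower leg) from C57BL/6J males aged 3 months, collected 7 days after electroporation, 4 with NT siRNAs (group siNT) and 4 with *Uba1* siRNAs (group siUBA1). Both groups received hyaluronidase and electroporation, and both siRNAs were mixtures, so the control muscles had also been injected and electroporated. The muscles numbered alike were taken as the legs of 1 mouse, which gave 4 pairs. All control muscles were labelled R and all *Uba1* siRNA muscles L, so leg and siRNA cannot be told apart. For replicates 2 to 4 of siUBA1 the treatment entry names UBA2, UBA3 and UBA4, whereas the titles name UBA1, which was used here.

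The integrated stress response starts when kinases that sense amino acid shortage, misfolded proteins in the endoplasmic reticulum, heme shortage or double-stranded RNA phosphorylate the initiation factor eIF2. General translation then falls, while the *Atf4* mRNA is translated more because of short reading frames upstream of its coding sequence, so the *Atf4* mRNA level is not a measure of ATF4 protein. ATF4 dimerizes with other basic leucine zipper proteins, among them C/EBP factors, and turns on genes for amino acid supply, redox balance and feedback, including most of the genes described here. *Atf3* is such a target, and it is also an immediate-early gene that other stress and growth signals induce.

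The letters bound by ATF4 with C/EBP partners, the C/EBP-ATF response element, were searched as TGATGNAA on both strands in RefSeq promoter windows of 300 bases, 250 before and 50 after each start site (table on GRCm38.p6). The element was in 1304 of 32851 windows (3.97%) and in windows of 4 of the 10 genes. The 4 stretches are shown because they place the pathway's element beside the genes' starts, with the match in capitals, 5′ to 3′ on the strand of the gene. Coordinates are those of the single exact match of each window in GRCm39.

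Atf3: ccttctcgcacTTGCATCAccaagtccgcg
Chac1: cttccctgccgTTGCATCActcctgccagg
Trib3: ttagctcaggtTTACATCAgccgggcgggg
Asns: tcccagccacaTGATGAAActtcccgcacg

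The *Atf3* stretch is chr1:190915622-190915651 on the minus strand, in an intron of 2 longer *Atf3* transcripts of GENCODE, and its match lies at -110 to -103 from the start. The *Chac1* stretch is chr2:119181519-119181548 on the plus strand, with the match at -193 to -186, in an exon of 1 *Chac1* transcript. The *Trib3* stretch is chr2:152185948-152185977 on the minus strand, with the match after the start at 15 to 22, in an exon of 5 *Trib3* transcripts. The *Asns* stretch is chr6:7693214-7693243 on the minus strand, with the match at -23 to -16, in an exon of 23 *Asns* transcripts. In the first 3 genes the element reads on the opposite strand. *Atf3* and *Chac1* hold the same 8 letters there, TGATGCAA.

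A pair of other elements was searched in the same windows. The cAMP response element TGACGTCA was in 588 windows (1.79%), among them that of *Ppp1r15a* at -12 to -5. The AP-1 element TGANTCA was in 2565 windows (7.81%), among them that of *Ddit3* at -242 to -236. No motif overlapped another in these windows.

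Ppp1r15a: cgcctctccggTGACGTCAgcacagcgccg
Ddit3: cgcgcgcaTGACTCActcacctcctccgcg

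These stretches are chr7:45175686-45175715 on the minus strand and chr10:127126412-127126441 on the plus strand. A match is a run of letters and not a binding site, and binding was not measured here.

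*Uba1* itself (chrX:20524493-20549418, plus strand) was at 60.6, 59.0, 63.6 and 59.1 TPM in the control muscles of replicates 1 to 4, and at 18.1, 6.77, 15.8 and 23.1 TPM with *Uba1* siRNAs. Every *Uba1* siRNA muscle was below every control, with the deepest loss in replicate 2 and the mildest in replicate 4. The log2 fold change (log2FC, siUBA1 minus siNT on log2(TPM + 1)) was -1.98 (SE 0.290), with an adjusted p of 0.0527 from limma with Benjamini-Hochberg adjustment over 11530 genes, and of 0.0278 when the mouse was a block. Of the genes in the fit, 3 had an adjusted p under 0.05 (0.026%), and 57 did with the block (0.494%, made of 0.304% lower and 0.191% higher). The median log2FC of all genes was 0.11 in TPM and 0.0016 after median-ratio scaling, a shift of 0.10, so small values are read against that median. The mitochondrially encoded genes took 39.9 to 50.3% of all TPM.

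*Atf3* (chr1:190902493-190950241, minus strand) was at 76.9, 158, 99.8 and 129 TPM in control muscles of replicates 1 to 4. With *Uba1* siRNAs it was at 14.5, 23.4, 17.7 and 45.8 TPM. The groups did not overlap: the highest *Uba1* siRNA muscle, replicate 4, was below the lowest control. The means were 116 ± 35.1 and 25.4 ± 14.1 TPM (SD, n = 4), 4.57-fold lower with *Uba1* siRNAs, and the log2FC was -2.23 (SE 0.337), or -2.34 below the median of all genes. Leaving out any 1 muscle gave values from -2.55 to -2.02. Within the mice the log2 differences were -2.33, -2.70, -2.43 and -1.47, and those of *Uba1* were -1.69, -2.95, -1.95 and -1.32. The mice fell in the same order for both genes, which is a description of 4 mice.

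**Figure D1:**
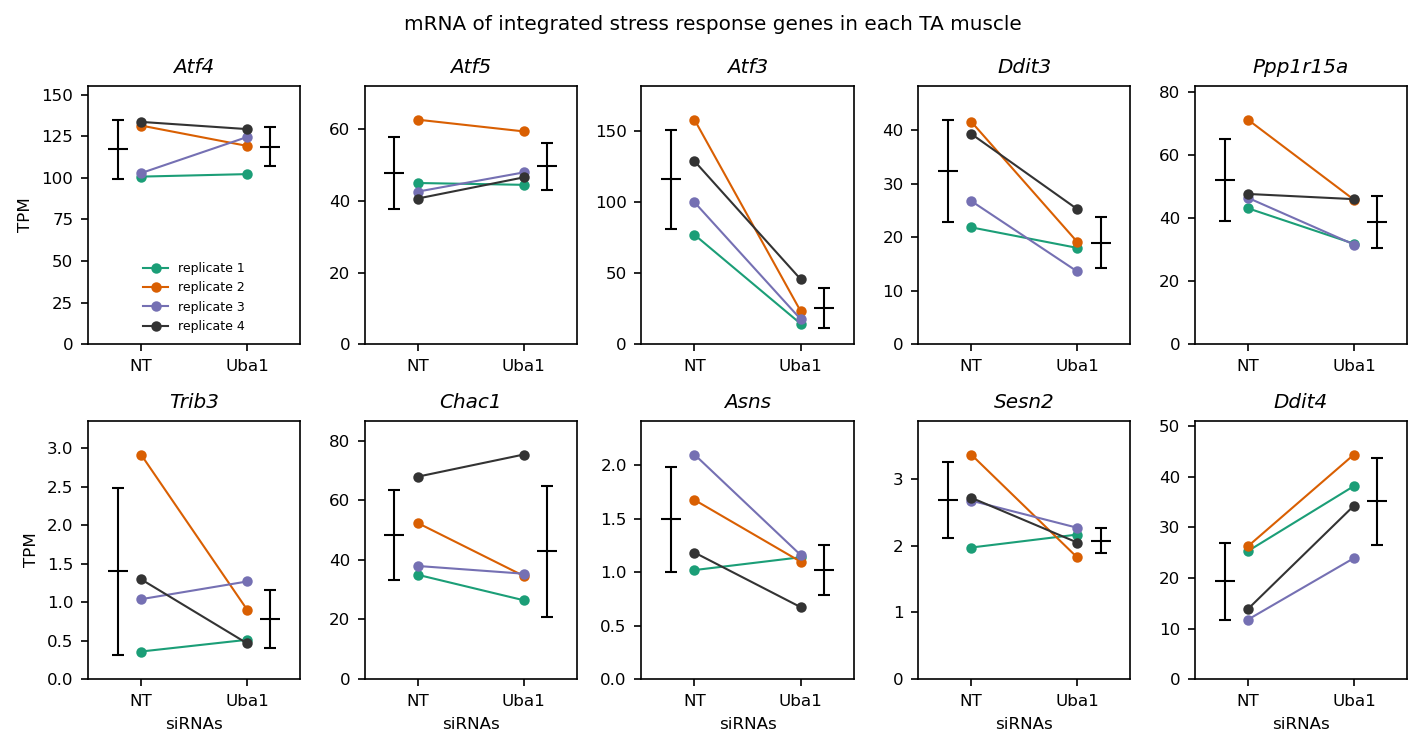
TPM (vertical axis, from 0, a scale per gene) of each of the 10 genes in every muscle by siRNA, with points for muscles, a line for each mouse and bars for the group mean and SD (n = 4). The *Atf3* values are apart, at 76.9 TPM or more in control muscles and at 45.8 TPM or less with *Uba1* siRNAs, and the groups overlap in the other 9 panels.

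The groups overlapped for each of the other 9 genes. Of all genes tested, 1.01% were apart with lower values and 10.6% with higher values in siUBA1. These shares are for reading the other 9 genes, since *Atf3* was chosen for its lower values. Of the other 9 genes, 0 passed an adjusted p of 0.05 in limma, against 0.026% of all genes, and 2 (*Ddit3* and *Ddit4*) had an unadjusted p under 0.05, against 18.0% (1.98% lower and 16.0% higher). Both also had a log2FC beyond 0.58, the fold threshold of the study, here joined to the limma p where the study used Kruskal-Wallis. Of all genes 0.833% met both limits with lower and 0.442% with higher values. By the Kruskal-Wallis test 0 passed the adjusted threshold and 1 (*Ddit3*) had an unadjusted p under 0.05, against 19.2% of all genes, but its smallest p over all genes was 0.0209 (adjusted 0.180), so 0 genes of any kind passed in 4 against 4 muscles. With the mouse as a block, *Ddit4* passed the adjusted threshold. In that fit 4 of the 9 (*Ddit3*, *Ddit4*, *Ppp1r15a* and *Asns*) had an unadjusted p under 0.05, against 25.2% of all genes. The log2FC was below 0 for 6 of these 9 genes, against 18.2% of all genes in TPM and 49.3% after median-ratio scaling, which also put *Atf4* and *Atf5* below 0. Their median was -0.25, beside 0.11 for all genes.

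**Figure D2:**
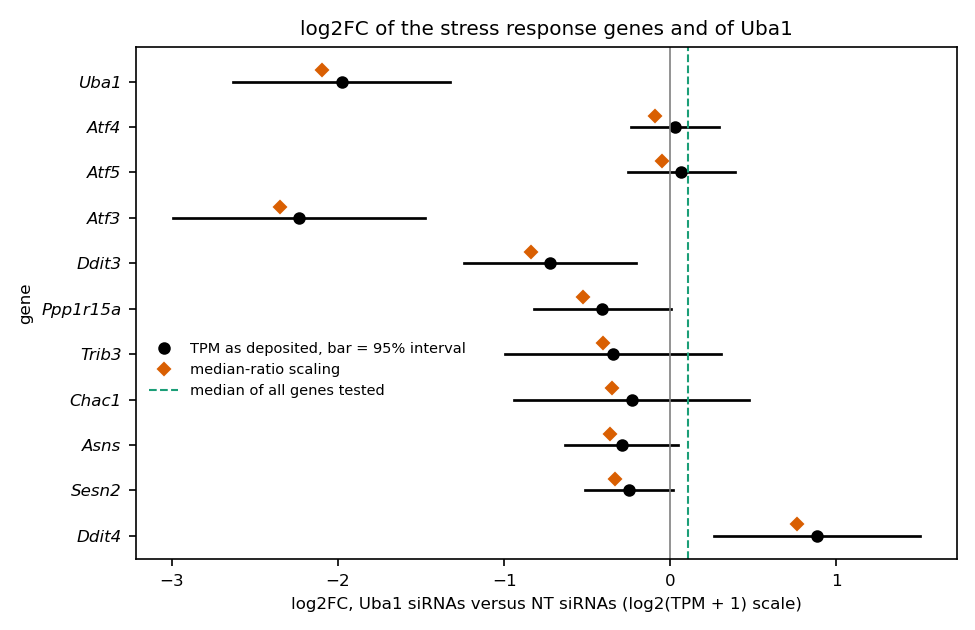
Log2FC (horizontal axis, siUBA1 minus siNT) of the 10 genes and *Uba1*, with 95% intervals from limma (bars), the value after median-ratio scaling (diamonds) and the median of all genes tested (dashed line). *Atf3* lies at -2.23, and as it was chosen for its lower values its bar is a description and no test. *Ddit3* lies at -0.72 and *Ddit4* at 0.88, and the intervals of the other 7 of the 10 genes include 0. All intervals are from the fit without the mouse as a block.

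*Atf4* and *Atf5* were at similar TPM in both groups. *Atf4*, which encodes the central transcription factor, was at 101, 131, 103 and 134 TPM in control muscles and at 102, 119, 124 and 129 TPM with *Uba1* siRNAs. The ranges lay over each other. The means were 117 ± 17.8 and 119 ± 11.8 TPM (SD, n = 4), with a log2FC of 0.03 (95% interval -0.24 to 0.29, adjusted p = 0.910 in limma), which was -0.09 after median-ratio scaling. *Atf5*, a related factor whose mRNA also carries upstream reading frames, was at 45.0, 62.6, 42.5 and 40.6 TPM in control muscles and at 44.4, 59.3, 47.9 and 46.5 TPM with *Uba1* siRNAs. Replicate 2 was highest in both groups, and the ranges overlapped. The log2FC was 0.07 (95% interval -0.25 to 0.39, adjusted p = 0.802 in limma), or -0.05 after median-ratio scaling. *Atf5* shares 180 exonic bases with *Nup62* on the opposite strand, and the libraries did not mark strand.

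Because TPM values are scaled per muscle, the ratio of *Atf3* to *Atf4* within a muscle is free of that scaling. It was 0.764, 1.20, 0.971 and 0.963 in control muscles and 0.142, 0.197, 0.143 and 0.354 with *Uba1* siRNAs. The *Atf3* mRNA was thus near the level of the *Atf4* mRNA in each control muscle and well under it in each *Uba1* siRNA muscle. The same ratio for *Ddit3* averaged 0.272 ± 0.0434 and 0.160 ± 0.0369 (SD, n = 4), without overlap, although the *Ddit3* TPM values themselves overlapped. The share of all genes whose ratio to *Atf4* is apart was not counted, so how common this is cannot be told. It overlapped between groups for *Chac1* (0.406 ± 0.0715 and 0.354 ± 0.153), *Ppp1r15a* and *Ddit4*.

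*Ddit3* encodes CHOP, a C/EBP family factor linked to cell death under lasting stress. It was at 21.8, 41.6, 26.8 and 39.3 TPM in control muscles and at 18.0, 19.1, 13.6 and 25.2 TPM with *Uba1* siRNAs. All 4 *Uba1* siRNA muscles were below the control of their own mouse, and the groups overlapped because control replicate 1 was below *Uba1* siRNA replicate 4. The means were 32.4 ± 9.58 and 19.0 ± 4.80 TPM (SD, n = 4), 1.70-fold lower, with a log2FC of -0.72 (SE 0.229, adjusted p = 0.182 in limma). With the mouse as a block the adjusted p was 0.0658, and 0.0459 with the block after median-ratio scaling, where *Ddit3* passed. The table holds *Ddit3* as 2 numbered entries, and the values are those of the first, since the second was listed at 0 in every muscle. *Ddit3* shares 3576 exonic bases with *Mars1* on the opposite strand, which was at 26.0 to 34.8 TPM with a log2FC of 0.07 (adjusted p = 0.659 in limma), and without strand the reads of the pair cannot be told apart.

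*Ppp1r15a* encodes GADD34, which brings a phosphatase to eIF2 and so closes the feedback loop of the response. It was at 43.0, 71.1, 46.3 and 47.6 TPM in control muscles and at 31.8, 45.7, 31.6 and 45.9 TPM with *Uba1* siRNAs. Each *Uba1* siRNA muscle was below its own control, narrowly so in replicate 4, and the groups overlapped. The log2FC was -0.41 (95% interval -0.82 to 0.0036, adjusted p = 0.281 in limma), and -0.25 without siNT replicate 2. With the mouse as a block the unadjusted p was 0.0044 in limma (adjusted 0.0981). Beside *Atf3*, which was chosen for its lower values, *Ddit3* and *Ppp1r15a* were the 2 of the other 9 genes lower in 4 of 4 mice, a pattern seen in 2.98% of all genes tested.

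None of the targets that act in metabolism and redox balance passed the test. *Chac1*, which encodes an enzyme that breaks down glutathione, was at 35.0, 52.4, 38.0 and 67.9 TPM in control muscles and at 26.5, 34.6, 35.4 and 75.4 TPM with *Uba1* siRNAs. Replicate 4 was highest in both groups and was the mouse in which the *Uba1* siRNA muscle was above its control. The log2FC was -0.23 (95% interval -0.94 to 0.47, adjusted p = 0.689 in limma). *Asns*, asparagine synthetase, and *Trib3*, a pseudokinase that restrains ATF4 and AKT, were expressed at low levels. *Asns* was at 1.02 to 2.10 TPM in control muscles and at 0.674 to 1.16 TPM with *Uba1* siRNAs, with a log2FC of -0.29 (adjusted p = 0.325 in limma). *Trib3* was at 0.358 to 2.92 TPM and 0.465 to 1.27 TPM, with a log2FC of -0.35 (adjusted p = 0.517 in limma). Single muscles moved these values: *Trib3* had -0.08 without siNT replicate 2 and -0.59 without siNT replicate 1, *Chac1* had -0.04 without siUBA1 replicate 1, -0.05 without siNT replicate 4 and -0.54 without siUBA1 replicate 4, and *Asns* had -0.18 without siNT replicate 3. At levels as low as those of *Asns* and *Trib3*, log2(TPM + 1) understates a change, and with a pseudocount of 0.1 the values were -0.49 and -0.55.

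Sestrin 2 (*Sesn2*) and REDD1 (*Ddit4*) both restrain the growth kinase complex mTORC1, and their log2FC values lay on opposite sides of 0. *Sesn2* was at 1.97 to 3.36 TPM in control muscles and at 1.82 to 2.27 TPM with *Uba1* siRNAs, with a log2FC of -0.25 (adjusted p = 0.298 in limma), or -0.16 without siNT replicate 2. *Ddit4* was at 25.3, 26.3, 11.8 and 13.9 TPM in control muscles and at 38.2, 44.4, 23.9 and 34.3 TPM with *Uba1* siRNAs. Each *Uba1* siRNA muscle was above its own control, as for 32.2% of all genes tested, and the groups overlapped because control replicates 1 and 2 were above *Uba1* siRNA replicate 3. The means were 19.3 ± 7.56 and 35.2 ± 8.60 TPM (SD, n = 4), 1.82-fold higher. The log2FC was 0.88 (SE 0.275), with an adjusted p of 0.182 in limma, of 0.0359 with the mouse as a block, and of 0.0686 with the block after median-ratio scaling.

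**Figure D3:**
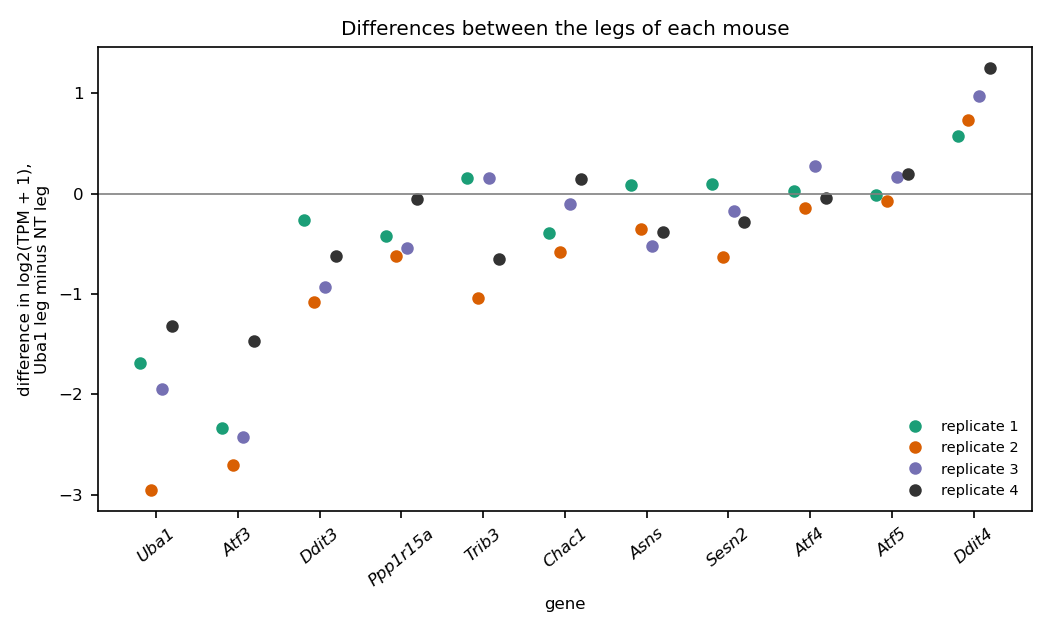
Difference in log2(TPM + 1) between the *Uba1* siRNA and the control muscle of each mouse (vertical axis), with a point per mouse for *Uba1* and the 10 genes. *Atf3* lies below 0 in 4 of 4 mice, from -2.70 to -1.47, and *Ddit4* above 0, from 0.57 to 1.25.

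The order of the levels differed between the groups. In control muscles *Atf4* (117 TPM) and *Atf3* (116 TPM) led and overlapped, and *Atf3* was above *Ppp1r15a* (52.0 TPM), the next gene, in every muscle. *Ppp1r15a*, *Chac1*, *Atf5* and *Ddit3* followed with overlapping ranges, then *Ddit4*, and *Sesn2*, *Asns* and *Trib3* were lowest. With *Uba1* siRNAs *Atf4* was first and apart from *Atf5*, *Chac1*, *Ppp1r15a*, *Ddit4*, *Atf3* (rank 6) and *Ddit3*, which followed in this order with each range overlapping the next. *Atf5* was thus second instead of at rank 5, and *Ddit4* stood above *Ddit3*. In control muscles all 10 members varied more than the median gene, with an SD on the log2 scale of 0.219 to 0.630 against 0.116. With *Uba1* siRNAs the SD was 0.0910 (*Sesn2*) to 0.696 (*Atf3*) against 0.147, and *Sesn2* was below the median gene and *Atf4* level with it. Control replicate 2 held the highest value of its group for 7 of the 10 members, against 14.9% of all genes, and *Uba1* siRNA replicate 4 for 5, against 11.1%.

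Beyond the 10 genes, known ATF4 targets were counted on lists that were drawn up with earlier results of these data known. On 3 lists together (amino acid and one-carbon metabolism, tRNA synthetases, secreted and signaling proteins) 42 of 47 genes passed the filter on low values. Of these, 0 passed an adjusted p of 0.05 in limma or with the block, 18 had a log2FC below 0 (33 after median-ratio scaling), where all genes had 18.2% (49.3%) below 0. At an unadjusted p under 0.05 were 2 lower and 1 higher, against 1.98% and 16.0% of all genes. Their median log2FC was 0.03, beside 0.11 for all genes, and by list it was -0.08, 0.06 and 0.03. The amino acid transporter *Slc38a3* had a mean of 37.3 TPM in control muscles and a log2FC of 0.43 (adjusted p = 0.137 in limma), and *Gpt2*, an alanine aminotransferase, had 0.05. The amino acid transporter *Slc7a1*, named after its values were seen, was the 1 gene of the 42 whose groups were apart with lower values (1.01% of all genes), at 1.36 to 1.99 TPM in control muscles and 0.839 to 1.18 TPM with *Uba1* siRNAs, with a log2FC of -0.36 (adjusted p = 0.168 in limma). The groups were apart with higher values for 2 of the 42 (10.6% of all genes). The tRNA synthetases of that list spanned -0.07 to 0.12, and *Xpot*, which exports tRNAs from the nucleus and stands on the same list, had 0.14. *Fgf21* and *Gdf15*, hormones released by stressed muscle, were below the filter and not tested. *Fgf21* was at 0 to 1.90 TPM in control muscles and 0.0672 to 0.509 TPM with *Uba1* siRNAs, lower in 2 of 4 mice. *Gdf15* was at 0.445 to 1.26 and 0.138 to 0.732 TPM, lower in 3 of 4 mice, and the groups overlapped for both.

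The machinery of eIF2 itself also gave no call. All 19 listed genes, for the eIF2 kinases, eIF2, eIF2B and factors that act on them, were tested, with 0 adjusted calls in limma, 2 values below 0 (15 after median-ratio scaling) and a median of 0.04. At an unadjusted p under 0.05 were *Ppp1r15b*, a phosphatase subunit related to GADD34, at -0.26, and the kinase *Eif2ak4* at 0.25, where 1.98% of all genes were lower and 16.0% higher at that threshold. The shares of all genes to read these lists against are 18.2% below 0 in TPM and 49.3% after median-ratio scaling. The 9 tested CHOP targets had 0 adjusted calls, 7 values below 0 (9 after median-ratio scaling) and a median of -0.20, and they include the members *Ppp1r15a* and *Trib3*. Of 9 relatives of the members 5 were below 0 (7 after median-ratio scaling), with 0 adjusted calls, and *Trib1*, a pseudokinase related to *Trib3*, had the lowest value, at -0.86 (adjusted p = 0.149 in limma). Of 4 tested C/EBP partners 2 were below 0 (3 after median-ratio scaling), with 0 adjusted calls. *Cebpb*, one of them, had -0.34 (adjusted p = 0.157 in limma), with groups that did not overlap, and it is also on the list of CHOP targets. With the mouse as a block after median-ratio scaling, *Trib1* (adjusted p = 0.0416 in limma) and *Cebpb* (0.0274) passed. The CREB/ATF family (12 tested) had 3 values below 0 (6 after median-ratio scaling) and a median of 0.12, and the 15 chaperones of the endoplasmic reticulum had 8 (11) and a median of -0.0064, each with 0 adjusted calls in limma. *Hspa5*, the main such chaperone, had -0.11 and *Calr* -0.01.

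The AP-1 and immediate-early genes, which include inducers of *Atf3* outside the ATF4 route, had group values below 0 for 15 of 15 tested genes under both scalings, with a median of -0.54. By mouse, 13, 15, 15 and 6 of the 15 were lower with *Uba1* siRNAs in replicates 1 to 4, so in replicate 4 most (9, among them *Fos*, *Jun* and *Egr1*) were higher. None passed an adjusted p of 0.05 in limma, 7 had an unadjusted p under 0.05 with lower values (1.98% of all genes), and *Myc* passed with the block. Several of these genes were known to be lower in these muscles when the list was made, so the count is not independent evidence of a direction. *Myc* was at 7.96, 13.6, 9.67 and 12.8 TPM in control muscles and at 3.39, 3.22, 3.87 and 6.32 TPM with *Uba1* siRNAs, a log2FC of -1.21 (adjusted p = 0.0760 in limma, 0.0268 with the block). *Fosl2*, an AP-1 subunit, had -0.98, *Btg2*, an antiproliferative immediate-early gene, had -1.04, and the nuclear receptor *Nr4a1* had -0.67. *Fosl1*, the other gene on this list, was below the filter and not tested. It was at 0.842 to 3.14 TPM in control muscles and 0.0629 to 0.267 TPM with *Uba1* siRNAs.

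**Figure D4:**
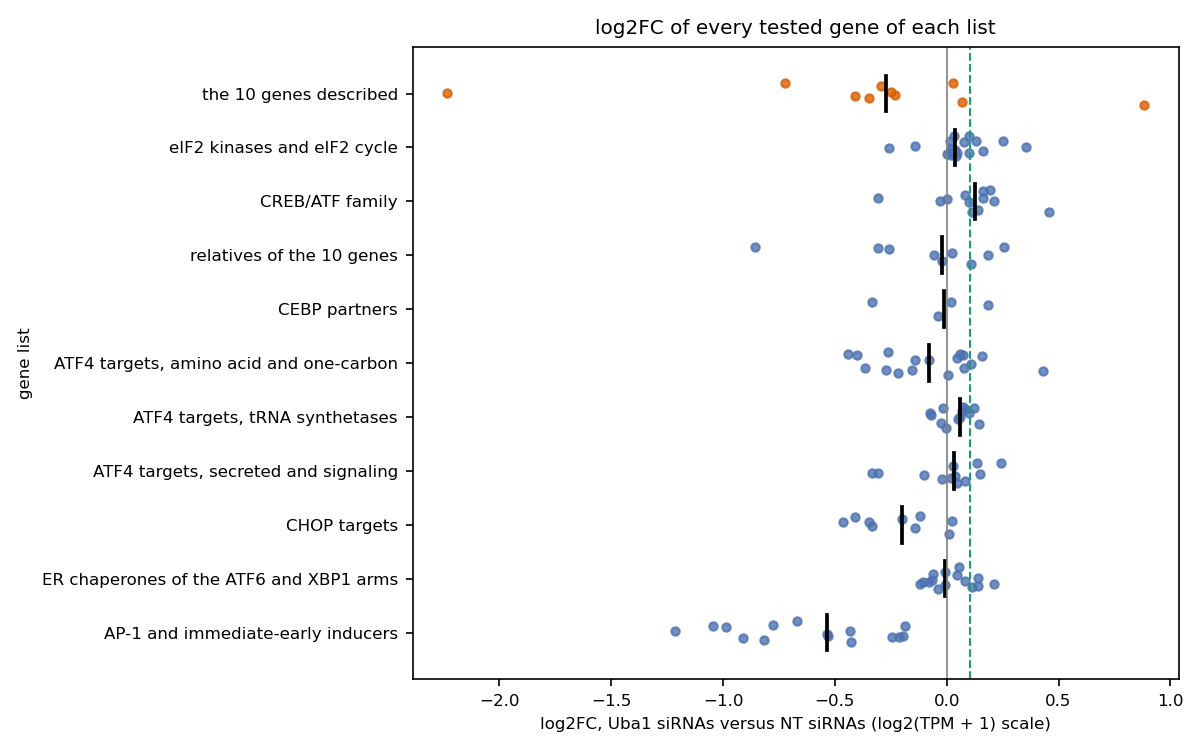
Log2FC (horizontal axis, siUBA1 minus siNT) of the 10 genes described and of every tested gene on each of the 10 lists, with points for genes, bars for medians and a dashed line for the median of all genes, 0.11. The AP-1 and immediate-early list is the one with all 15 genes below 0, and the medians of the 3 lists of ATF4 targets are -0.08, 0.06 and 0.03.

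Over the 8 muscles, the genes whose log2(TPM + 1) was most like that of *Atf3* were *Otud1*, a deubiquitinase (r = 0.992), *Gprc5a* (r = 0.981), *Myc* (r = 0.980) and *Maff* (r = 0.977). Among the members *Ddit3* came at rank 62 (r = 0.901), *Ppp1r15a* at rank 118 (r = 0.817), *Sesn2* at rank 212 (r = 0.693), *Chac1* at rank 311 (r = 0.584), *Trib3* at rank 448 (r = 0.468) and *Asns* at rank 483 (r = 0.441). *Atf4* came at rank 835 (r = 0.234), *Atf5* at rank 1684 (r = -0.024) and *Ddit4* at rank 7899 (r = -0.645). These r values are descriptions over 8 muscles that fall into 2 groups.

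Marker sums were compared because these were whole muscles, in which fewer cells of a type and less RNA per cell cannot be told apart. The muscle fiber markers summed to 105064 to 112288 TPM in control muscles and to 81925 to 115646 TPM with *Uba1* siRNAs, and no marker list held a gene at 0 in all muscles. Leukocyte markers summed to 102 to 329 and 99.8 to 350 TPM. All 4 fibroblast markers and all 3 tested neutrophil markers had higher values in siUBA1, and all 3 adipocyte and all 3 erythrocyte markers lower ones, with 0 adjusted calls in limma. Of all genes 18.2% had lower values in TPM, so higher values were the common case. Of the adipocyte markers, 1 had an unadjusted limma p under 0.05 with a log2FC beyond 0.58. Adipocyte markers summed to 7.51 to 14.3 and 1.32 to 11.1 TPM. The part of these cells in the values of *Atf3*, *Ddit3* and *Ddit4* was not tested.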

How the data were processed

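RNA-seq (unstranded TruSeq libraries) was made from 8 TA muscles. The authors aligned the reads to GRCm39 and deposited TPM values per gene, which sum to 1000000 in each muscle. Counts were not used here, so depth is unknown and no counting interval is given. The mapping left 0 columns of other samples.

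Genes with at least 1 TPM in at least 4 of 8 muscles (11530 of 41709 entries, and 10 of the 10 members) were tested on log2(TPM + 1) with limma 3.58.1 in R 4.3.3 (trended variance, Benjamini-Hochberg adjustment over all genes tested), siUBA1 against siNT. The study names the Kruskal-Wallis test, which was run as an alternative. P-values measure the spread between these muscles. Muscles numbered alike come from the same mouse, per the labels and methods. Their deviations from the group means correlated across genes at -0.00037, 0.20, 0.58 and 0.54 for replicates 1 to 4. The fit with the mouse as a replicate block is given where it changes an adjusted call, and for the count of members with an unadjusted p under 0.05. Intervals and other unadjusted counts are from the fit without the block.

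The members and lists were chosen with earlier results of these data known. Named list genes were those past a threshold (adjusted p of 0.05, or unadjusted p of 0.05 with a log2FC beyond 0.58) and the 2 with the highest mean TPM in each list, of which the text gives a part. In data simulated for this comparison over 11530 genes, 200 genes were altered, and limma recovered 92% of them at a log2 difference of 1 (6.12% of calls were false) and 98.5% at 2 (3.90%). These shares are over genes of all spreads, and the members varied more than the median gene in control muscles. The simulated muscles were drawn independently and not in pairs. In the measured muscles *Uba1*, at -1.98, had an adjusted p of 0.0527 in limma, so the shares do not give the power for the members. Other pseudocounts, filters, scalings and left-out muscles were tried. Motifs were searched in RefSeq promoter windows, and gene positions are from GENCODE on GRCm39. Of the genes most like *Atf3*, 1 is not reported here.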

Additional observations from a re-analysis of the deposited data

Results flagged for a closer look

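In 22 groups of 4 muscles (*Uba1* and the 10 members in each group), 2 muscles stood apart from the other 3 of their group, where chance gives 1.1 at 1 in 20. *Asns* was at 0.674 TPM in siUBA1 replicate 4, below 1.10 to 1.16 TPM in the rest of that group. *Ppp1r15a* was at 71.1 TPM in siNT replicate 2, above 43.0 to 47.6 TPM in the rest of that group.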

How the results depend on the processing

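The number of genes passing an adjusted p of 0.05 moved from 3 to 11 with a mean of 5 TPM or more, 14 without mitochondrial genes, 57 with the replicate block, 23 when scaled by median ratios (76 if blocked as well), 28 after quantile normalization and 0 by Kruskal-Wallis, and lay between 2 and 39 with 1 muscle left out (39 without siUBA1 replicate 4). Of the 9 members besides *Atf3*, 1 passed with the block (*Ddit4*, 0.0359), 1 when median ratios were also used (*Ddit3*, 0.0459) and 0 to 0 with a muscle left out. The block changed the adjusted call of no other of these 9 members. Members below 0 numbered 4 with a mean of 5 TPM or more, which leaves out *Trib3*, *Asns* and *Sesn2*, and 7 to 8 with a muscle left out. List genes with an unadjusted limma p under 0.05 and a log2FC beyond 0.58 went from 7 to between 5 and 13 with a muscle left out, 13 without siUBA1 replicate 4 and 11 without siNT replicate 1. *Atf4* turned to -0.094 with median-ratio scaling, also with the block, to -0.0049 with quantile normalization, and to -0.041, -0.031 and -0.015 without single muscles (range -0.041 to 0.097). *Atf5* turned to -0.053 with median-ratio scaling, also with the block, to -0.021 with quantile normalization, and to -0.0017 and -0.021 without single muscles (range -0.021 to 0.20). *Uba1* passed in 8 of 17 alternatives (adjusted p 0.00257 to 0.230). The cause of these moves was not tested. *Atf3*, chosen for its direction, and the other 7 members kept their direction in every alternative that gave a value. The filters, the block and the Kruskal-Wallis test leave the log2FC of a gene as it was, so they could not turn it. TPM keeps no depth, so the counting error of low genes such as *Trib3* and *Asns* is unknown.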
